A study of Mus musculus with 25 samples.

Results

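Cathepsins are the proteases of lysosomes and related granules. The 9 cathepsin genes described here (Ctsa, Ctsb, Ctsc, Ctsd, Ctsh, Ctsl, Ctss, Ctsw and Ctsz) were picked by gene symbol from a table of 23366 symbols in 25 bulk RNA libraries. All 9 were found, all 9 had a value above 1 in every library, and all 9 were among the 12251 genes that passed the filter on low values. The libraries were made by an adapted SMART-Seq 2 method from CD8+ T cells of B16F10 tumours, a transplantable mouse melanoma line, in C57BL/6 mice. There were 16 wild-type libraries, 3 with a conditional knockout of Prdm1 (Prdm1 cKO), 3 with a conditional knockout of c-Maf (c-Maf cKO, gene Maf) and 3 lacking both factors (Prdm1/c-Maf cDKO, written cDKO below). The study asked how the expression profile of tumour CD8+ T cells depends on these factors. The Cre line that deletes the genes, the age and sex of the mice, and the number of animals behind a library are not given in the labels used here, so p-values reflect how libraries vary, which may in part be technical. Libraries are named by the code in their column, such as A3; that code is in no sample label, so a column was matched to its genotype and not to a single sample.

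Most cathepsins are cysteine proteases of the papain family, made as inactive precursors, carried to the lysosome by mannose 6-phosphate receptors and held in check by cystatins, stefins and some serpins. Ctsd is an aspartic protease and Ctsa a serine carboxypeptidase. In T cells, Ctsc (dipeptidyl peptidase I) trims granzyme precursors into active enzymes and Ctsw is a cysteine protease found mostly in cytotoxic lymphocytes. In macrophages and dendritic cells, Ctss and Ctsl cut the invariant chain and other substrates during antigen presentation on MHC class II. Blimp-1, the product of Prdm1, represses transcription in effector lymphocytes, and c-Maf is a transcription factor of the bZIP class.

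The values are a normalised expression signal per gene and library whose scale is not stated, and sequencing depth is unknown. Column totals ran from 389650 to 475956. In each knockout group the columns stand beside their own run of wild-type columns, giving 3 column sets: the 3 Prdm1 cKO libraries stand with 7 of wild type (set 1), the 3 of c-Maf cKO with 4 (set 2) and the 3 of cDKO with 5 (set 3). No label calls these batches, so values with the column set as a covariate are given beside the pooled ones where a call changes. The letters of the column codes do not follow the sets. Set 1 holds A codes, and set 2 holds B codes and C1 of c-Maf cKO. In set 3, wild type has B codes and cDKO has C2, A1 and A2. What the letters stand for is not given, and a grouping by letter was not fitted. Prdm1 signal ran from 6.45 to 24.85 in wild type, from 0.41 to 4.71 in Prdm1 cKO and from 1.18 to 4.69 in cDKO libraries. Maf was too low to check most labels, at 0.03 to 0.95 in wild type, and the c-Maf cKO library labelled C1 had 0.93, inside that range. Cd8a was present in every library, from 70.05 to 244.42, while the summed signal of Cd4, Foxp3 and Cd40lg was at most 9.13. RNA of macrophages was present too: the sum of 12 macrophage and monocyte markers ran from 3.48 to 664.66 in wild type (median 107), from 365.42 to 1281.79 in Prdm1 cKO, from 47.31 to 459.79 in c-Maf cKO and from 4.90 to 46.94 in cDKO libraries, and 0 of the 12 markers were at 0 throughout any group. Melanoma cell markers were detected as well. The sum of 6 of them ran from 6.67 to 3074.90 in wild type (median 479) and from 652.16 to 1312.46 in Prdm1 cKO. It ran from 12.67 to 567.63 in c-Maf cKO and from 96.48 to 1321.04 in cDKO libraries. The part of melanoma RNA in the cathepsin values was not tested. In bulk samples, a change in the number of cells of a type cannot be told apart from a change in RNA per cell.

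RefSeq promoter windows (build GRCm38.p6) were at hand for 6 of the 9 genes, in 7 windows, of which Ctsa has 2. Ctsb, Ctsh and Ctsw have no window in that set. The stretches before the start sites of Ctsd, Ctss and Ctsa are shown because Ctsd gave the clearest difference between genotypes, Ctss one of the highest correlations with a macrophage gene, and Ctsa one of the smallest differences. They lie at chr7:142387828-142388077 on the minus strand (Ctsd), chr3:95526706-95526785 on the plus strand (Ctss) and chr2:164833733-164833772 on the plus strand (Ctsa). Each is written 5′ to 3′ on the gene's strand and ends at the base before the annotated start. Capitals mark GTCACGTG, in either orientation, in Ctsd and Ctsa, and a pair of GAAA words spaced by 2 bases in Ctss.
Ctsd: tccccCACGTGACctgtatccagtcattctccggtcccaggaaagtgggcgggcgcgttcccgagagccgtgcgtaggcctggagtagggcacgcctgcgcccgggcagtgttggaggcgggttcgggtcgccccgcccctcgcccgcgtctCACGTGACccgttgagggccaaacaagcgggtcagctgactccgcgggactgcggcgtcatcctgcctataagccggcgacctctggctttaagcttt
Ctss: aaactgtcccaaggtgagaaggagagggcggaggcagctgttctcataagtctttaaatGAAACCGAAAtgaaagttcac
Ctsa: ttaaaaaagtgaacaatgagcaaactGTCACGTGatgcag
CACGTG is the core of the element bound by TFEB, a regulator of lysosomal genes, and lies inside the longer GTCACGTG. Both strands of 32851 windows of 250 bases upstream of a start site were searched: 6.02% held CACGTG and 1.85% held GTCACGTG. The Ctsd window held GTCACGTG at 2 positions, 245 and 98 bases before the start, the second Ctsa window held it at 14 bases, and the Ctsl window held CACGTG alone at 236 bases. GAAA, any 2 bases and GAAA again, a form bound by interferon regulatory factors, was in 2.98% of all windows and in the Ctss window at 21 bases. GTGAAAG, a core of Blimp-1 sites, was in 3.57% of all windows, and TGCTGAC, part of the element bound by Maf proteins, in 3.81%. Neither was in any of the 7 cathepsin windows. A match says only that these letters occur in the window.

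Ctsd was the most abundant of the 9 cathepsins and Ctsh the least. Low values scaled with transcript length: over 5453 genes with a mean below 1, the lowest value above 0 had a median of 0.07 in the quartile of shortest transcripts and 0.02 in the quartile of longest, so levels of different genes are compared here as levels per length. In wild type, mean signal was 620 for Ctsd, 211 for Ctsw, 123 for Ctsb, 103 for Ctss, 89.3 for Ctsz, 51.7 for Ctsc, 49.6 for Ctsa, 27.2 for Ctsl and 15.6 for Ctsh. Neighbours at the top of this order were well apart: Ctsd was above Ctsw in 16 of 16 wild-type libraries, and Ctsw above Ctsb in 15. In the middle they were not: Ctss was above Ctsz in 10 of 16, and Ctsc above Ctsa in 8 of 16. Ctsa varied least, by 2.23-fold from the lowest to the highest of the 25 libraries, and Ctsd by 3.56-fold. Ctss varied by 15.8-fold, Ctsl by 39.9-fold and Ctsh, an aminopeptidase, by 72.6-fold.

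**Figure D1:**
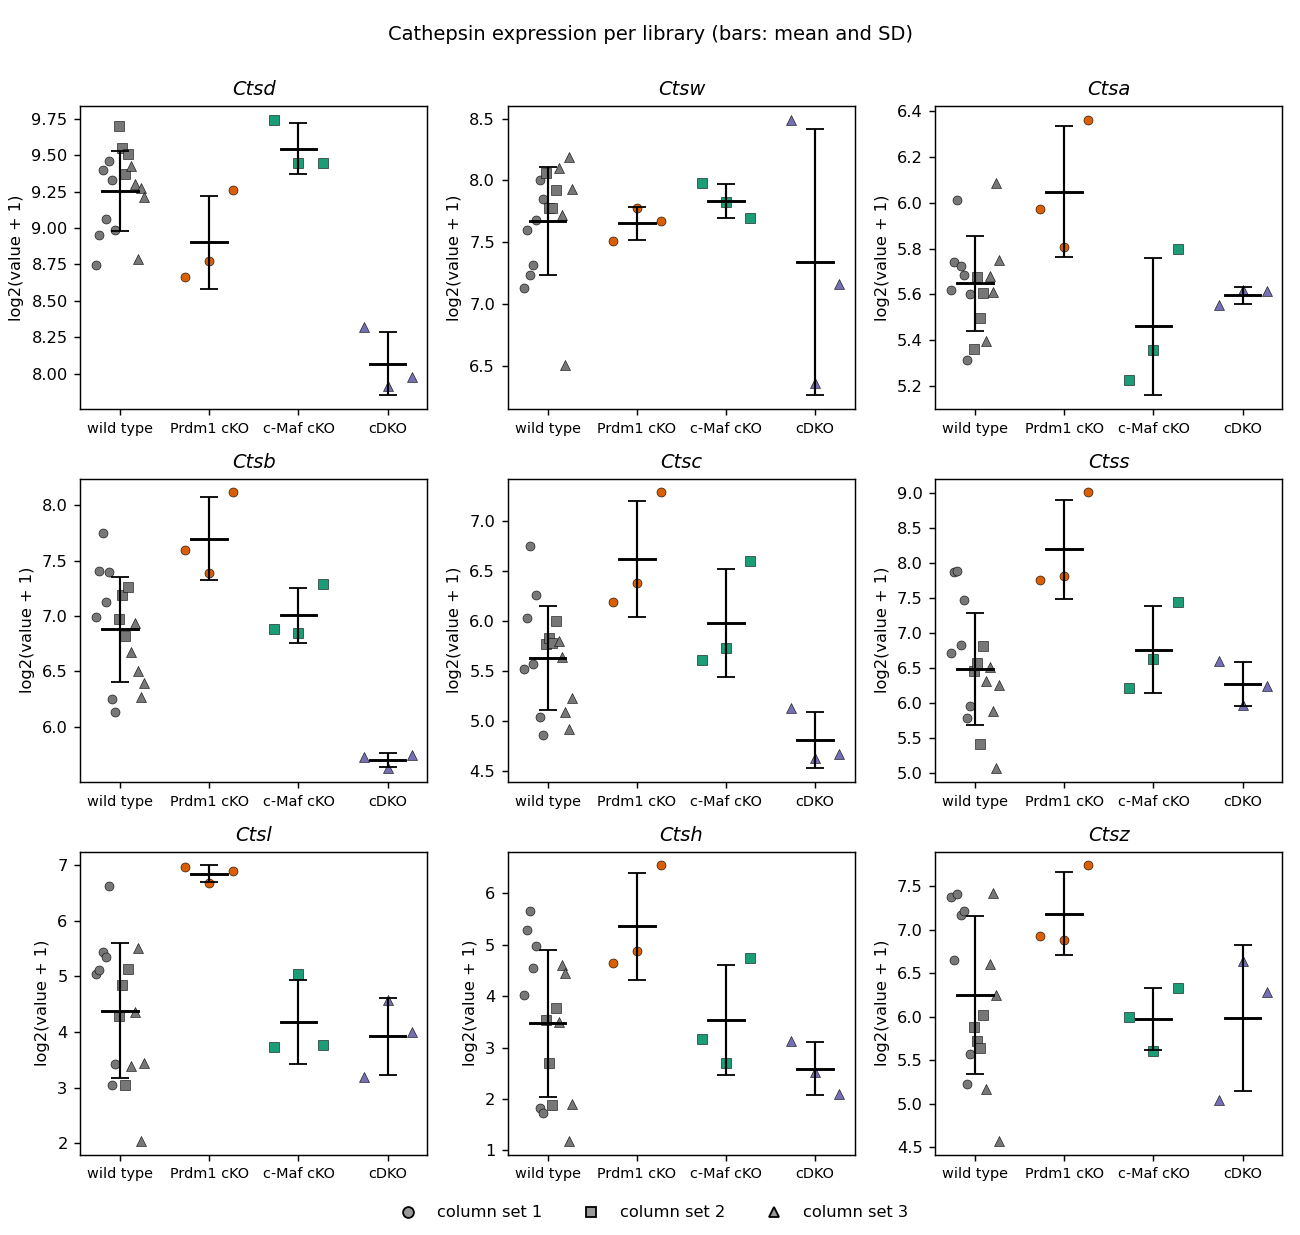
Each panel plots log2(value + 1) of 1 cathepsin in the 25 libraries by genotype, with a bar at the mean and whiskers of 1 SD; the marker shape gives the column set. The 3 cDKO libraries lie below all 16 wild-type libraries for Ctsd and Ctsb, and the 3 Prdm1 cKO libraries lie above all of them for Ctsl. The share of all genes that separate in this way is not given.

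The cathepsins fell into those that followed the macrophage gene Lyz2 (lysozyme) across libraries and those that did not. The members were to be split by this correlation, so it is a description and carries no test. The 25 points share genotype and column set. Pearson's r of log2 values with Lyz2 was 0.90 for Ctss, 0.89 for Ctsh, 0.82 for Ctsl, 0.80 for Ctsc, 0.78 for Ctsb, 0.63 for Ctsz, a carboxypeptidase, and 0.50 for Ctsa. It was 0.07 for Ctsd and -0.15 for Ctsw. With values rescaled to the CD3 genes r with Lyz2 was 0.48 for Ctsd, close to Ctsa, and 0.29 for Ctsw. That rescaling divides the cathepsin and Lyz2 by the same factor, which alone can raise r. It therefore cannot decide whether the split depends on the scaling. Ctsw followed instead the mean of 4 CD3 complex genes, with r = 0.84, and Ctsd did so more weakly, with r = 0.59. Ctsz had the lowest r with the CD3 genes, at -0.76. Ctsd also followed Gzmb, the granzyme of cytotoxic granules, with r = 0.78, against 0.41 for Ctsw and 0.03 for Ctsc.

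By its known role Ctsc had been placed with Ctsw as a lymphocyte cathepsin, but by correlation it lay with the macrophage-linked members. Its r with the CD3 genes was -0.07, and its closest cathepsin was Ctsb, with r = 0.93. The genes outside the family most like Ctsc over the 25 libraries were Emr1 (r = 0.93), the macrophage antigen F4/80, Naaa (0.92) and the chemokine Ccl9 (0.91). Wild-type libraries show the range: Ctsc was 107.14 in A7, where Lyz2 was 962.84, and 29.24 in B4, where Lyz2 was 7.24. In B4, the wild-type library with the least macrophage marker signal, Ctsc was of about the same size as in A11 (31.83) and A12 (28.04), where Lyz2 was 9.13 and 15.30. In B1, with a Lyz2 of 14.30, it was 54.90. Ctsh and Ctsl were low in B4, at 1.27 and 3.11, while Ctsw was at its wild-type maximum there, 290.20.

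**Figure D2:**
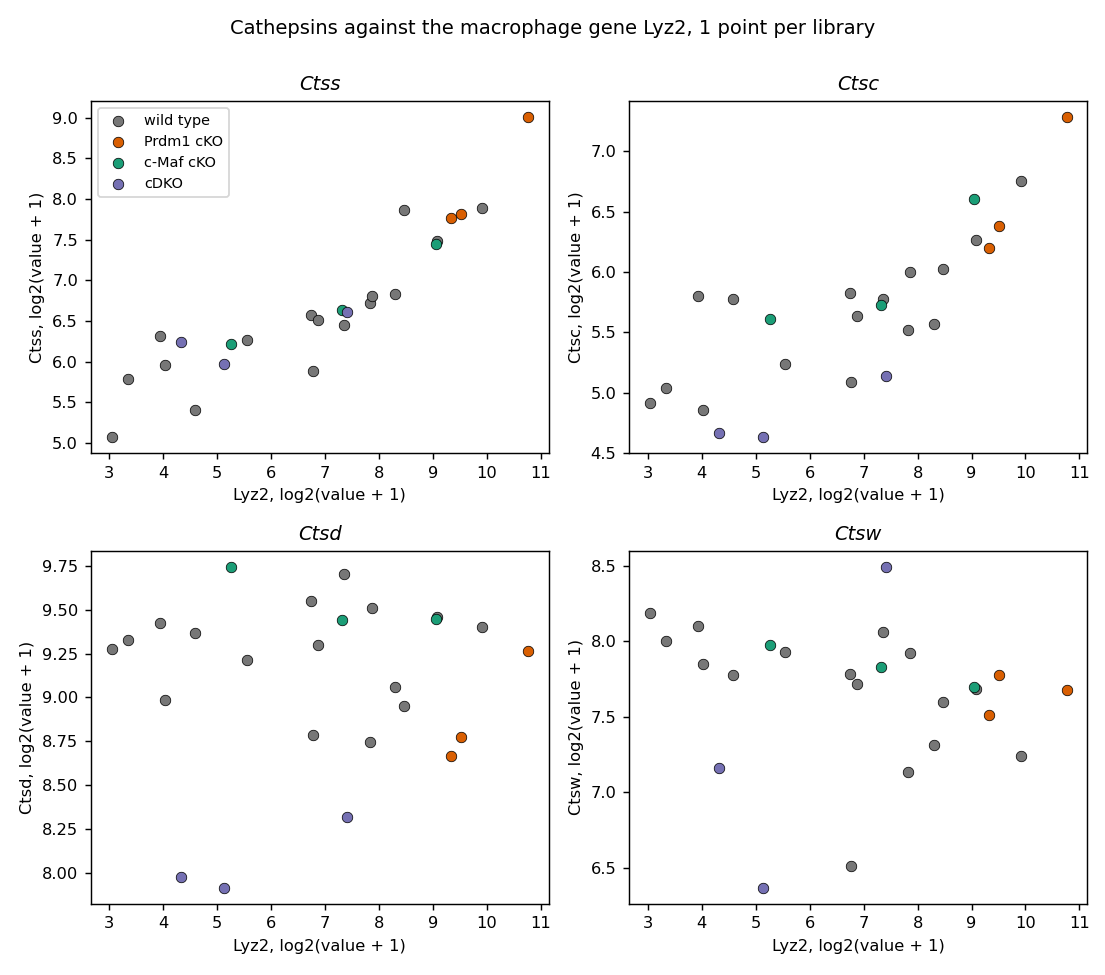
Log2(value + 1) of Ctss, Ctsc, Ctsd and Ctsw against that of Lyz2, with 1 point per library coloured by genotype. Ctss (r = 0.90) and Ctsc (r = 0.80) rise with Lyz2, Ctsd (r = 0.07) and Ctsw (r = -0.15) do not, and the cDKO points of Ctsd lie below all others.

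The correlations were not alike in the column sets. Within set 1, where Lyz2 ran widest, r with Lyz2 was 0.97 for Ctsb, 0.97 for Ctsh and 0.91 for Ctsc. Within set 3 it was 0.07 for Ctsb, 0.19 for Ctsc and 0.08 for Ctsz, while Ctsh kept 0.68 and Ctss 0.63. Without B4 and A11, the libraries farthest from the median Lyz2, r was 0.88 for Ctss, 0.78 for Ctsc, 0.78 for Ctsb and 0.16 for Ctsd. The nearest genes outside the family also differed by member. Ctsb was nearest to the complement genes C1qc, C1qa and C1qb (r = 0.90, 0.90 and 0.88), Ctsh to Tyrobp (0.95), and Ctsz to Ftl1, a ferritin light chain (0.96). Ctsd was nearest to Entpd1 (0.94), which encodes the ectonucleotidase CD39, and Ctsw to Cd52 (0.89) and Lck (0.88), the kinase of the T cell receptor.

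**Figure D3:**
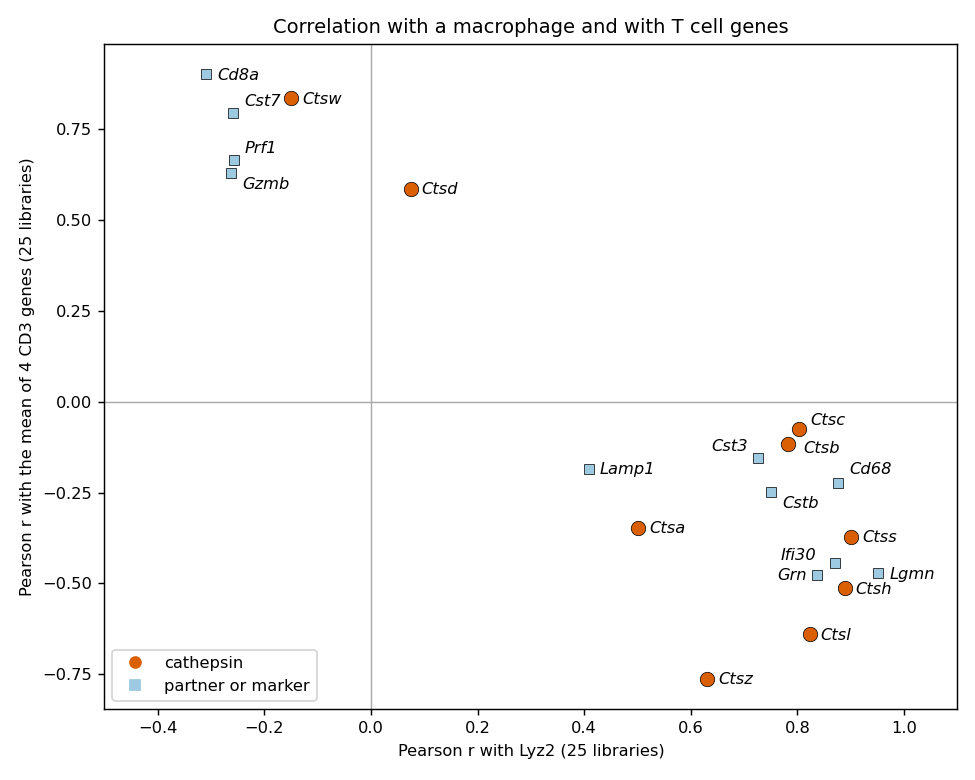
Pearson r over 25 libraries of each cathepsin (circles) and of partner or marker genes (squares) with Lyz2 on the x axis and with the mean of 4 CD3 genes on the y axis. Ctsw and Ctsd lie on the T cell side with Gzmb, Prf1, Cst7 and Cd8a, and Ctsb, Ctsc, Ctsh, Ctsl and Ctss lie with Cd68, Lgmn and Ifi30.

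Loss of both factors came with less of 2 of the 9 cathepsins, Ctsd and Ctsb, and more of 0. The call is an adjusted p under 0.05 in limma. Of all genes tested, 11.9% were called in this comparison, 6.85% as lower, and nothing particular to the cathepsins as a group is read from a count of 2. With the column set as a covariate, 7.97% of all genes were called, and with the mean log2 level of the macrophage markers (macrophage score), 11.7%. The median log2 fold change of the 9 was -0.46, against -0.03 for all genes tested.

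Ctsd is the main aspartic protease of lysosomes. Its signal was 318.28 in C2, 240.44 in A1 and 251.26 in A2 of the cDKO group, and 428.56 to 832.06 in wild type (median 635). All 3 cDKO libraries were below all 16 wild-type libraries, with no overlap, and their mean of 270 ± 42.2 (SD, n = 3) was 43.6% of the wild-type mean of 620 ± 114 (SD, n = 16). Here and below, the share of all genes that separate from wild type in this way is not given. Nothing further is read from such a separation. The log2 fold change was -1.18 ± 0.16 (SE, adjusted p = 6.9e-05). It was -1.13 with the column set as a covariate (adjusted p = 0.000213) and -1.15 with the macrophage score (adjusted p = 0.000216). A2 had a macrophage marker sum of 4.90 and a Ctsd signal of 251.26, and the wild-type libraries with similar sums, B4 (3.48) and A11 (6.80), had 619.51 and 641.15. T cell signal was lower in A2 than in those libraries: the sum of 9 CD8 T cell markers was 1788.79 in A2, 3712.21 in B4 and 2810.03 in A11. The lowest Ctsd of wild type was in A3 and B3, 428.56 and 439.96, with CD8 marker sums of 1809.78 and 1299.55. Wild-type libraries A7, A8 and A10 had sums of 1928.81, 1981.96 and 2052.57, nearer to A2 than that of B3, and more Ctsd than A3 and B3. Rescaled to the CD3 genes, the Ctsd fold change was -0.84 and was called (adjusted p = 0.00802). What part macrophage and T cell content had in these Ctsd values was not tested.

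Ctsb is a cysteine protease with both endopeptidase and carboxypeptidase activity. Its signal was 52.16 in C2, 48.48 in A1 and 52.65 in A2, and 69.37 to 214.43 in wild type. The 3 cDKO values lay close together and below every wild-type library. The log2 fold change was -1.18 ± 0.25 (SE, adjusted p = 0.00256), and it was -0.85 with the column set (adjusted p = 0.0487) and -0.83 with the macrophage score (adjusted p = 0.000355). Scaled to the CD3 genes instead of the authors' normalisation, the Ctsb fold change was -0.84 and no longer passed (adjusted p = 0.176). That scaling moved the median log2 fold change of all genes to 0.23. Of the CD3 genes used for it, Cd3g was itself called lower in cDKO (-0.90, adjusted p = 0.0399), though not with the column set (0.113). Cd3d (-0.03), Cd3e (-0.36) and Cd247 (-0.06) were not called.

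Ctsc, the activator of granzymes, had a similar order of values without passing the test. It was 34.16 in C2, 23.79 in A1 and 24.41 in A2, and wild type began at 28.04, so A1 and A2 lay below all wild-type libraries and C2 did not. The log2 fold change was -0.82 ± 0.30 (adjusted p = 0.0727). Ctsc was called without the wild-type library A12 (-0.87, adjusted p = 0.0482) and with a filter on low values at 10 (adjusted p = 0.0498).

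Ctsw was split within the cDKO group. It was 359.03 in C2, above all 16 wild-type libraries, 141.97 in A2, and 81.48 in A1, below all of them, with wild type at 90.11 to 290.20. The log2 fold change was -0.34 ± 0.29 (adjusted p = 0.540), and without C2 it was -0.91 (adjusted p = 0.0356). The CD8 marker sum moved in the same order, at 2868.54 in C2, 1788.79 in A2 and 1512.80 in A1, and its part in these values was not tested. The other five cathepsins did not pass: Ctsh had a log2 fold change of -0.88, Ctsl of -0.46, Ctsz of -0.26, Ctss of -0.22 and Ctsa of -0.05. Markers of red blood cells moved with the genotype as well. Their summed signal was 461.45 to 4038.33 in cDKO and 1.38 to 1488.19 in wild-type libraries, 4 of 5 tested were called higher (3 of 5 with the column set), and its part in the cathepsin values was not tested.

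**Figure D4:**
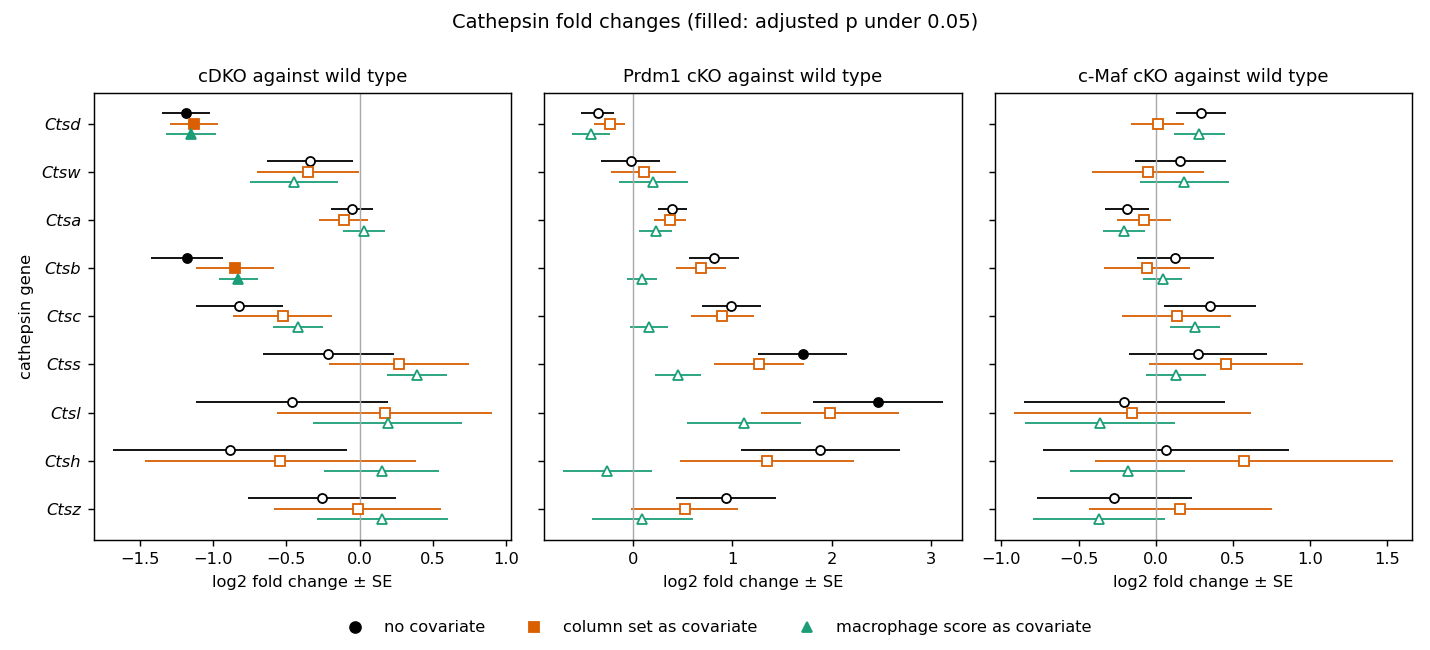
Log2 fold change and SE of each cathepsin against wild type in the 3 knockout groups, with no covariate (circles), with the column set (squares) and with the macrophage score (triangles); filled symbols have an adjusted p under 0.05. Ctsd and Ctsb are filled in all 3 fits for cDKO, and Ctsl and Ctss for Prdm1 cKO are filled only with no covariate.

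Loss of Prdm1 alone went with more of 2 of the 9 cathepsins, Ctss and Ctsl, and less of 0. Of all genes tested, 3.45% were called, 1.58% as higher. With the column set 0 of 9 cathepsins and 0.482% of all genes were called, and with the macrophage score 0 of 9 and 0.106%. By limma, 5 of 9 and 1 of 9 cathepsins then had an unadjusted p under 0.05 in either direction, where 14.5% and 10.5% of all genes did. The 1 with the macrophage score was Ctsd, which was lower (-0.42). With no covariate it was 7 of 9, with Ctsd among them as lower (-0.35), and 20.6% of all genes. The median log2 fold change of the 9 was 0.94, against -0.02 for all genes tested. Macrophage RNA was higher in the same libraries: Lyz2 was 643.13 in A5, 731.40 in A6 and 1735.61 in A9, and 12 of 12 macrophage markers had a positive log2 fold change (median 2.52), of which 1, Emr1, was called (0 with the column set). The summed signal of red blood cell markers in Prdm1 cKO, 213.74 to 1770.47, overlapped wild type, and 0 of 5 were called.

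Ctss, which trims the invariant chain of MHC class II, was 216.02 in A5, 224.98 in A6 and 515.78 in A9. Wild type ran from 32.57 to 236.05 with a median of 88.5, so A9 was above all wild-type libraries and A5 and A6 were inside their upper range. The log2 fold change was 1.71 ± 0.45 (SE, adjusted p = 0.0348). It was 1.27 with the column set (adjusted p = 0.192) and 0.46 with the macrophage score (adjusted p = 0.486). Without A9 it was 1.30 (adjusted p = 0.248) and without A6 it was 1.90 (adjusted p = 0.0939).

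Ctsl, a cysteine endopeptidase, was 123.99 in A5, 101.45 in A6 and 117.49 in A9. All 3 were above all 16 wild-type libraries, which ran from 3.11 to 97.92 (median 23.6). The highest wild-type library, A10, came close to A6. The log2 fold change was 2.47 ± 0.65 (SE, adjusted p = 0.0375), and it was 1.98 with the column set (adjusted p = 0.185) and 1.12 with the macrophage score (adjusted p = 0.502). The call was also lost without A5 (adjusted p = 0.0801), A6 (0.128), A9 (0.159) or the wild-type library B5 (0.0513), where the fold change stayed between 2.40 and 2.55.

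Ctsb and Ctsc were near the threshold in Prdm1 cKO. Ctsb was 191.90, 166.19 and 276.13 in A5, A6 and A9, with a log2 fold change of 0.82 ± 0.25 (adjusted p = 0.0585). Ctsc was 72.35, 82.42 and 155.36, with 0.99 ± 0.30 (adjusted p = 0.0564). In both genes A9 alone lay above all wild-type libraries. Without the wild-type library A7, the highest of wild type for both, Ctsb had an adjusted p of 0.0292 and Ctsc of 0.0232. Each was also called without A4 or without A10, and Ctsc without A5. With the macrophage score as a covariate, the log2 fold change was 0.10 for Ctsb and 0.16 for Ctsc. Ctsh had 1.89 ± 0.80 (adjusted p = 0.174), Ctsz 0.94 ± 0.50 (adjusted p = 0.299) and Ctsa 0.40 ± 0.14 (adjusted p = 0.108). Ctsd was 405.11, 437.05 and 613.10 (-0.35 ± 0.16, adjusted p = 0.210), with A5 below all wild-type libraries. Ctsw was 181.47, 218.53 and 203.19 (-0.02 ± 0.29, adjusted p = 0.980), inside the wild-type range. The sign of both depended on the fit: rescaled to the CD3 genes Ctsd was 0.03 and Ctsw 0.36, and with the column set Ctsw was 0.11.

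Loss of c-Maf alone gave 0 of 9 cathepsins called by limma, with 0% of all genes tested called and 0 of 9 cathepsins with an unadjusted p under 0.05, as 6.16% of all genes had. Ctsd was 856.24 in B10, 695.15 in B11 and 695.89 in C1, where B10 was above all wild-type libraries and the others were inside their range (0.29 ± 0.16, adjusted p = 0.819). Ctsc was 47.78, 52.12 and 96.14, and Ctss 73.45, 98.04 and 172.99. In both, C1 was the highest of the group, and C1 was also the library with the most Lyz2, 528.12 against 37.25 in B10 and 158.75 in B11. The remaining log2 fold changes lay between -0.27 for Ctsz and 0.35 for Ctsc. The SE was 0.80 for Ctsh and 0.65 for Ctsl.

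Between the knockout groups, 2 cathepsins were lower in cDKO than in Prdm1 cKO, Ctsb (-1.99 ± 0.32, adjusted p = 0.0055) and Ctsc (-1.81 ± 0.39, adjusted p = 0.0294), where 0.392% of all genes were called, 0.327% as lower. For both genes the 3 cDKO libraries were below all 3 Prdm1 cKO libraries. The share of all genes that separate in this way is not given here, so nothing further is read from it. With the column set the log2 fold changes were -1.54 and -1.43 (adjusted p = 0.194 and 0.321), and with the macrophage score they were smaller, -0.92 and -0.58 (adjusted p = 0.269 and 0.748). In both fits 0% of all genes were called. Ctsc also did not pass without A1, A2, A5 or A9 (adjusted p of 0.123, 0.153, 0.0565 and 0.176). Macrophage marker sums differed between these groups without overlap, 4.90 to 46.94 against 365.42 to 1281.79. Ctsd had -0.83 ± 0.21 and did not pass (adjusted p = 0.068), but it was called with median-of-ratios rescaling (adjusted p = 0.0471), with quantile rescaling (0.0282) and without the wild-type library B3 (0.041).

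Against c-Maf cKO, cDKO had less Ctsd (-1.47 ± 0.21, adjusted p = 0.000579) and less Ctsb (-1.30 ± 0.32, adjusted p = 0.0116), with 9.39% of all genes called, 5.61% as lower. With the column set, where 1.08% were called, Ctsd was called (-1.14, adjusted p = 0.0167) and Ctsb was not (-0.80, adjusted p = 0.400). With the macrophage score, where 9.57% were called, both were (-1.43 and -0.87, adjusted p = 0.00108 and 0.00359). Ctsb was also not called without C1 (adjusted p = 0.0557). Ctsc had -1.17 ± 0.39 and did not pass (adjusted p = 0.0545), nor with the column set (-0.66, 0.648) or the macrophage score (-0.67, 0.0514). It was called with a filter on low values at 10 (adjusted p = 0.0371) and without A7 (0.0315), A9 (0.0448), A12 (0.048), B3 (0.0487) or B4 (0.0478). Prdm1 cKO against c-Maf cKO gave 0 of 9 cathepsins called by limma with 1.53% of all genes called, while 5 of 9 had an unadjusted p under 0.05, as 20.7% of all genes had. Ctsd, among those 5, was lower in Prdm1 cKO (-0.64 ± 0.21). The comparisons share the cDKO or wild-type libraries and are not independent of each other.

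The departure from additivity asks whether the cDKO value differs from the sum of both single knockout effects. It was called for 0 of 9 cathepsins by limma, with 0.00816% of all genes called (1 gene) and 6 of 9 cathepsins with an unadjusted p under 0.05, as 11.7% of all genes had. Ctsb had -2.12 ± 0.41 (adjusted p = 0.052), Ctsc -2.16 ± 0.49 (adjusted p = 0.069) and Ctsd -1.12 ± 0.26 (adjusted p = 0.083). These sat at the threshold: without A7 the adjusted p was 0.0134 for Ctsb and 0.0294 for Ctsc, and without A6 it was 0.0283, 0.0435 and 0.0489 for Ctsb, Ctsc and Ctsd. Ctsb was also called without A10, A11, B7, B3, B6 or C2 (adjusted p of 0.0312, 0.0491, 0.0485, 0.0362, 0.048 and 0.0364). With the column set the adjusted p was 0.407 for Ctsb and with the macrophage score it was 0.412.

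Among the inhibitors of cathepsins, 2 of 7 tested were lower in cDKO and 0 higher, with a median log2 fold change of -0.47, where 6.85% of all genes were called lower. Serpina3g, a serpin that inhibits cysteine cathepsins, was 40.75 in C2, 10.69 in A1 and 8.75 in A2, and 25.71 to 163.05 in wild type (-2.27 ± 0.52, adjusted p = 0.00574). Cst7, cystatin F, a granule inhibitor of Ctsc, was 109.18, 36.81 and 48.81, and 54.82 to 268.71 in wild type (-1.27 ± 0.33, adjusted p = 0.0137). For both genes A1 and A2 were below all wild-type libraries and C2 was not. Both were also called with the column set (adjusted p = 0.037 for Serpina3g and 0.0494 for Cst7). In Prdm1 cKO, Serpina3g was 33.68, 6.84 and 36.11 and was called (-1.91 ± 0.52, adjusted p = 0.0428), 1 of 7 lower and 0 higher, where 1.87% of all genes were called lower. That call was lost with the column set (adjusted p = 0.152) and with the macrophage score (0.282). Cst7 was not called (-1.10 ± 0.33, adjusted p = 0.0619). Cst3, cystatin C, and Cstb, stefin B, had log2 fold changes of -0.82 and -0.47 in cDKO (adjusted p = 0.053 and 0.105) and of 0.87 and 0.55 in Prdm1 cKO (adjusted p = 0.0705 and 0.0822). Both followed Lyz2 (r = 0.73 and 0.75), while Cst7 followed the CD3 genes (r = 0.79). Ctla2a and Ctla2b, which encode proteins like cathepsin propeptides, had 0.37 and 0.04 in cDKO, neither called.

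Of 11 genes for cathepsin sorting and activation, 2 were lower and 0 higher in cDKO, beside the same 6.85% of all genes. Gnptab encodes the transferase that starts the mannose 6-phosphate tag and averaged 5.26 ± 2.71 (SD, n = 3) against 12.4 ± 3.98 (SD, n = 16) in wild type (-1.13 ± 0.30, adjusted p = 0.0137). M6pr, a receptor for that tag, averaged 84.9 ± 11.6 (SD, n = 3) against 131 ± 22.4 (SD, n = 16; -0.61 ± 0.17, adjusted p = 0.0183). Neither passed with the column set (adjusted p = 0.0761 for Gnptab and 0.106 for M6pr), and with the macrophage score Neu1, a sialidase, was higher (0.69, adjusted p = 0.0296). Lgmn, a legumain that cleaves cathepsin precursors, and Grn, progranulin, had log2 fold changes of -1.0 and -0.87 in cDKO and 2.07 and 1.47 in Prdm1 cKO, none called. Lgmn had r = 0.95 with Lyz2 and Grn 0.84.

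Of the granzymes, proteases that Ctsc activates, 4 of 9 tested were lower in cDKO (Gzmb, Gzma, Gzme and Gzmc) and 1, Gzmm, was higher (1.85 ± 0.48, adjusted p = 0.0118). Of all genes, 6.85% were called lower and 5.09% higher. Only Gzmb and Gzma, 2 of 9, were lower with the column set and 0 higher, as Gzme (adjusted p = 0.146), Gzmc (0.245) and Gzmm (0.151) did not pass, and Gzmc did not pass with the macrophage score (0.0537). Gzmb was 47.33 in C2, 8.49 in A1 and 12.47 in A2 against 114.16 to 1050.61 in wild type (-4.51 ± 0.55, adjusted p = 6.6e-05), and Gzma fell by 1.75 on the log2 scale. In Prdm1 cKO 3 of 9 were lower and 0 higher: Gzmb (-5.10 ± 0.55), Gzma (-3.03 ± 0.47) and Gzmk (-1.63 ± 0.40), of which Gzmk was not called with the column set (adjusted p = 0.140) and neither Gzma (0.0742) nor Gzmk (0.304) with the macrophage score. With that score Gzmm was called higher (2.43, adjusted p = 0.0191). Gzmk in cDKO had -0.91 and was not called (adjusted p = 0.149). Granzyme signal can be split between near-identical copies by the authors' counting.

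Other lysosomal hydrolases were called in both directions. In cDKO 4 of 28 were lower, the mannosidase Man2b1 (-0.96), the glucuronidase Gusb (-0.95), the sphingomyelinase Smpd1 (-0.82) and the sulfatase Arsb (-1.07), and 1 was higher, the acid phosphatase Acp5. These counts stand beside 6.85% of all genes called lower and 5.09% higher. Gusb did not pass with the column set (adjusted p = 0.0803), and the other four did. Acp5 averaged 121 ± 13.8 (SD, n = 3) with a lowest value of 108.28, above the highest wild-type value of 71.11 (1.43 ± 0.22, adjusted p = 0.000187). In Prdm1 cKO 3 of 28 were higher, among them Gla (0.96) and Pla2g15 (1.18), and 1 was lower (Arsb -1.65), beside 1.58% and 1.87% of all genes. Gla (adjusted p = 0.173) and Pla2g15 (0.0917) did not pass with the column set, where 0 of 28 were higher and Arsb was lower (0.0247). With the macrophage score 0 of 28 were called in either direction. Lysosomal membrane proteins gave 0 of 17 and the TFEB family 0 of 4 called in either comparison by limma with no covariate. At an unadjusted p under 0.05 there were 2 of 17 and 2 of 4 in cDKO and 6 of 17 and 1 of 4 in Prdm1 cKO, where 24.8% and 20.6% of all genes passed that threshold. Lamp1 had 0.39 in cDKO and 0.81 in Prdm1 cKO, neither called. Lamp1 was called higher in cDKO with the column set (1.92 ± 0.52, adjusted p = 0.0247). Its mean was 23.3 in cDKO, and in wild type 5.17 in set 3, 25.7 in set 1 and 34.4 in set 2. With the macrophage score Npc2 was called higher in cDKO (0.51, adjusted p = 0.0238), so each of those fits called 1 of 17. Npc2 is in this list although its protein is soluble. MHC class II processing genes gave 0 of 8 in cDKO (1 at an unadjusted p under 0.05) and 1 of 8, H2-DMa (1.49), higher in Prdm1 cKO. By limma, 7 of 8 had an unadjusted p under 0.05 in Prdm1 cKO, beside the same 20.6% of all genes. All 8 log2 fold changes were positive there (median 2.57). With the column set 3 of 8 and with the macrophage score 0 of 8 passed that threshold, where 14.5% and 10.5% of all genes did. H2-DMa did not pass there with the column set (adjusted p = 0.176) or the macrophage score (0.536), and in cDKO it was called higher with the macrophage score (0.87, adjusted p = 0.0105). Ifi30, a lysosomal thiol reductase, had -0.49 in cDKO and 1.08 in Prdm1 cKO, neither called. In c-Maf cKO each of these lists gave 0 called by limma. An unadjusted p under 0.05 was seen there for 2 of 28 hydrolases, 1 of 17 membrane proteins and 1 of 4 TFEB family genes. Of the class II genes it was 0 of 8, and of all genes 6.16%.

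**Figure D5:**
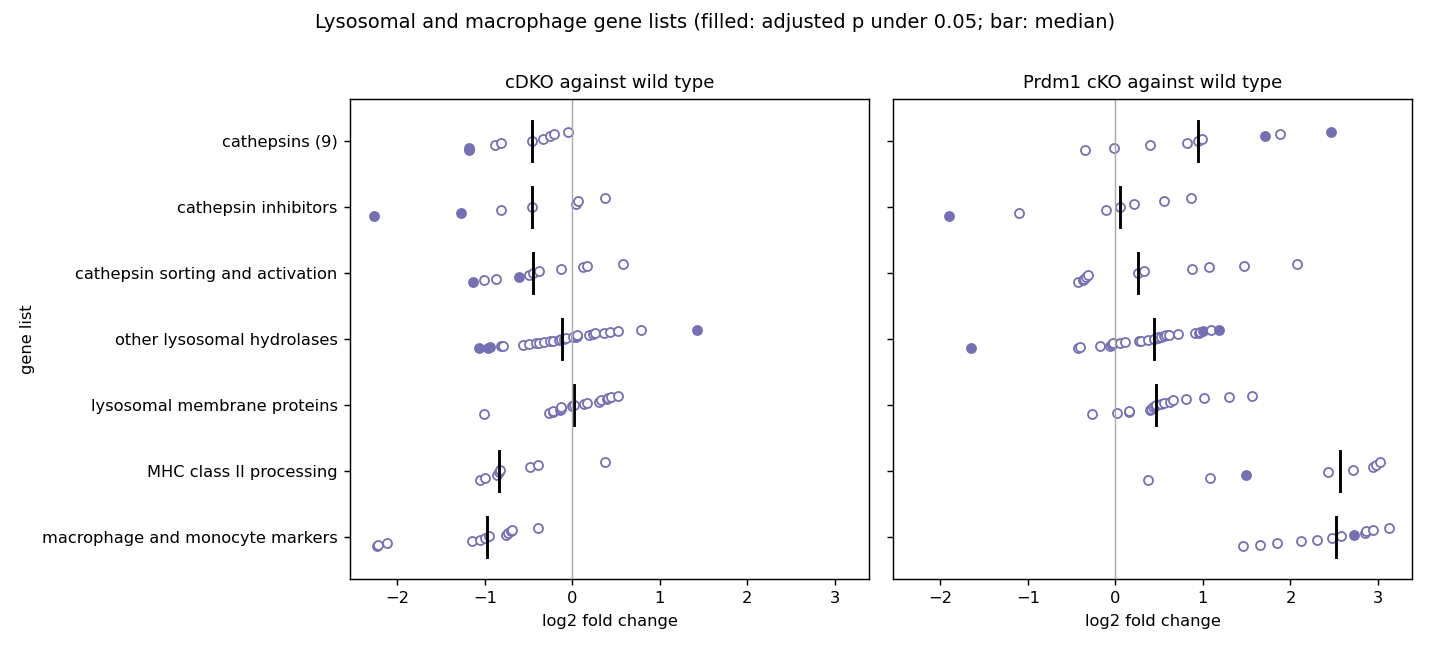
Log2 fold change of each tested gene in 7 gene lists for cDKO (left) and Prdm1 cKO (right) against wild type, with a bar at the list's median and filled circles for an adjusted p under 0.05. The cathepsin median is -0.46 in cDKO and 0.94 in Prdm1 cKO, and the macrophage marker median is -0.98 and 2.52.

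A further 14 cathepsin symbols were in the table and 3 of them were tested, Ctse, Ctsk and Ctso, with 0 called in any comparison with wild type by limma and 1, Ctso in cDKO, at an unadjusted p under 0.05 (-0.61, adjusted p = 0.190). Ctso averaged 6.46 ± 2.01 in wild type (SD, n = 16) and Ctse 2.17 ± 1.38, both below every one of the 9 members. Ctsk, a collagenase of osteoclasts, averaged 1.43 ± 1.82 in wild type. The other 11 did not pass the filter on low values.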

How the data were processed

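The deposited table gives, for each symbol and library, a signal that the authors normalised. Per the submitters' processing notes, TopHat, RSEM and DESeq were used with build mm9; the sources used here do not give versions, filters, the order of steps or the scale. Sequencing depth is unknown, so no counting interval is given. The genotype in a column's name set its group. Columns were not tied to single samples, because no label gives their codes. Sorted by code from A1 to C2, the column genotypes run in the same order as those of the sample labels.

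Values were transformed as log2(value + 1), which understates changes of low genes. Genes reaching 1 in 3 or more libraries (12251) were fitted over all 25 libraries in limma 3.58.1 (R 4.3.3), using eBayes with its trend and robust options and no covariate, for 7 contrasts. P-values were adjusted by Benjamini-Hochberg over all genes tested, and a gene was called at an adjusted p under 0.05. The steps were checked on simulated data. Errors of fold changes are SE. The macrophage score is the mean log2 level of 12 markers. Promoter windows came from RefSeq (GRCm38.p6), and transcript lengths from a GENCODE annotation of GRCm38; these builds differ from mm9.

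The 9 members, the gene lists and the tests were chosen with earlier results of these data known. The naming rule covered all members in every comparison, with Lyz2, Prdm1, Maf and fixed partners (among them Cst7, Cst3, Serpina3g, Lgmn and Grn). It also covered up to 4 called genes of each other list, lowest p first, and the 3 genes most like each member by Pearson r. Where c-Maf alone was lost and between knockout groups, only some members are named, and only some of the most similar genes are given. The values of 1 hydrolase that this rule names are not reported here. Alternatives were median-of-ratios, CD3 gene and quantile rescaling, pseudocounts of 0.1 and 10, no filter and a filter at 10, the column set or macrophage score as covariate, no trend and robust options, and leaving out each library.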

Additional observations from a re-analysis of the deposited data

How the results depend on the processing

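Ctsd in cDKO against wild type was called in 35 of 35 alternatives (log2 fold change -1.31 to -0.84, adjusted p up to 0.00802) and against c-Maf cKO in 35 of 35, and Ctsb in cDKO against wild type in 34 of 35. For Prdm1 cKO against wild type, Ctss was called in 31 of 35 and Ctsl in 27 of 35. The causes of the changes below were not tested.

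The number of cathepsins called in Prdm1 cKO against wild type was 4 with median-of-ratios or quantile rescaling, 1 with a pseudocount of 0.1, and 0 with the column set or the macrophage score. In cDKO against Prdm1 cKO it was 0 with rescaling to the CD3 genes, the column set or the macrophage score. In cDKO against c-Maf cKO it was 1 with CD3 rescaling or the column set, and in cDKO against wild type 1 with CD3 rescaling. Ctsc was called as well with a filter at 10 in cDKO against wild type (adjusted p = 0.0498). In Prdm1 cKO against wild type Ctsc was called with that filter (0.0491), a pseudocount of 10 (0.0471) or CD3 rescaling (0.0495). For Prdm1 cKO against c-Maf cKO the number of cathepsins called was 1 with quantile rescaling. For the departure from additivity it was 2 with quantile rescaling and 1 with a pseudocount of 0.1, a pseudocount of 10 or no trend and robust options. Leaving out 1 library gave 2 to 3 in cDKO against wild type, 0 to 4 in Prdm1 cKO against wild type, 0 to 0 where c-Maf alone was lost, 1 to 3 in cDKO against Prdm1 cKO, 1 to 3 in cDKO against c-Maf cKO, and 0 to 3 for the departure from additivity. Over all genes, calls ranged from 512 (without A2) to 1705 (without B3) around 1463 in cDKO against wild type, from 13 (macrophage score) to 684 (without B3) around 423 in Prdm1 cKO, from 0 to 17 (no filter) around 0 in c-Maf cKO, from 0 to 141 around 48 in cDKO against Prdm1 cKO, from 132 to 1315 around 1150 in cDKO against c-Maf cKO, from 0 to 319 around 187 in Prdm1 cKO against c-Maf cKO, and from 0 to 91 around 1 for additivity.

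Sign changes are given for the 9 cathepsins against wild type and for Ctsb, Ctsc and Ctsd between knockout groups, and none of these was called under the setting that changed its sign. With the column set these were, in cDKO, Ctsl 0.17 and Ctss 0.27, in Prdm1 cKO Ctsw 0.11, and for c-Maf cKO Ctsb -0.056, Ctsw -0.050 and Ctsz 0.16. With the macrophage score they were, in cDKO, Ctsa 0.030, Ctsh 0.15, Ctsl 0.19, Ctss 0.39 and Ctsz 0.15, in Prdm1 cKO Ctsh -0.25 and Ctsw 0.21, in c-Maf cKO Ctsh -0.18, and in Prdm1 cKO against c-Maf cKO Ctsc -0.091. Among the other members between knockout groups, the sign also changed with that score, uncalled, for Ctsh (0.40) and Ctsz (0.058) in cDKO against Prdm1 cKO, Ctsh (0.33), Ctsl (0.55) and Ctss (0.26) in cDKO against c-Maf cKO, and Ctsh (-0.070) and Ctsw (0.024) in Prdm1 cKO against c-Maf cKO. With CD3 rescaling, which moved the median of all genes to 0.23 in cDKO and 0.28 in Prdm1 cKO, they were in cDKO Ctsa 0.28, Ctss 0.12, Ctsw 0.0011 and Ctsz 0.078, in Prdm1 cKO Ctsd 0.027 and Ctsw 0.36, in c-Maf cKO Ctsb -0.14, Ctsh -0.21 and Ctsw -0.11, and in Prdm1 cKO against c-Maf cKO Ctsd 0.0053. Ctsa in cDKO was 0.10 with quantile rescaling, Ctsw in Prdm1 cKO was 0.027 with median-of-ratios and 0.044 with quantile rescaling, and Ctsh in c-Maf cKO was -0.057 with a pseudocount of 10. Leaving out 1 library gave Ctsw -0.91 to 0.15 and Ctsz -0.58 to 0.22 in cDKO, Ctsw -0.098 to 0.051 in Prdm1 cKO, and for c-Maf cKO Ctsb -0.015 to 0.21, Ctsh -0.53 to 0.48, Ctsl -0.64 to 0.019 and Ctss -0.064 to 0.55.

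Correlations with Lyz2 moved as follows. With CD3 rescaling, which divides both genes by the same factor, r was 0.87 for Ctsb, 0.89 for Ctsc, 0.48 for Ctsd and 0.29 for Ctsw. In wild type alone it was 0.27 for Ctsa, 0.89 for Ctsb, -0.018 for Ctsd, 0.91 for Ctsl and -0.52 for Ctsw. Within column set 1 it was 0.82 for Ctsa, 0.97 for Ctsb, 0.91 for Ctsc, -0.042 for Ctsd, 0.97 for Ctsh, 0.92 for Ctsl, -0.50 for Ctsw and 0.93 for Ctsz. Within set 2 it was -0.11 for Ctsd, 0.83 for Ctsh, 0.51 for Ctsl and 0.94 for Ctss. Within set 3 it was -0.37 for Ctsa, 0.072 for Ctsb, 0.19 for Ctsc, -0.16 for Ctsd, 0.68 for Ctsh, 0.54 for Ctsl, 0.63 for Ctss and 0.079 for Ctsz. Without B4 and A11 it was 0.68 for Ctsa. Leaving out 1 library gave 0.38 to 0.71 for Ctsa, 0.75 to 0.86 for Ctsb, 0.77 to 0.85 for Ctsc, -0.047 to 0.12 for Ctsd, 0.87 to 0.92 for Ctsh, 0.79 to 0.88 for Ctsl, 0.88 to 0.91 for Ctss, -0.29 to -0.07 for Ctsw and 0.58 to 0.68 for Ctsz.

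No paired analysis was possible because the columns carry no replicate numbers. Each knockout group has 3 libraries, depth is unknown, and the column set holds a single knockout group, so set and genotype are told apart only through the wild-type libraries of each set.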
